A study of Mus musculus with 12 samples.

Results

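Thyroid hormone transport, activation and response were followed through 7 genes in cells sorted from the developing mouse cerebellum. The genes were *Dio2*, *Dio3*, *Slco1c1*, *Thra*, *Thrb*, *Klf9* and *Hr*, and they were taken by symbol from the 24421 entries of the deposited expression table, which held all 7. The cells were GFP-positive cells sorted by flow cytometry from the cerebellum of *Aldh1l1-GFP* reporter mice of both sexes on a C57/BL6J background, in which GFP is driven by regulatory sequence of *Aldh1l1*, a folate-metabolism enzyme used as an astrocyte marker. RNA, polyadenylated by the labels' molecule field and total RNA by the protocol, was sequenced from 3 libraries at each of 4 postnatal ages, namely P1, P7, P14 and P28 (days after birth), with no treatment and the same reporter at every age. The labels do not say whether the 3 libraries of an age came from separate animals, so p-values measure the spread between these libraries, which may be partly technical.

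The thyroid gland releases mainly the prohormone thyroxine (T4), which enters the brain through membrane carriers such as the organic anion transporter encoded by *Slco1c1*. In brain, astrocytes are known as the main site where the deiodinase encoded by *Dio2* turns T4 into the active hormone T3, while the deiodinase encoded by *Dio3* inactivates both hormones. T3 acts on nuclear receptors encoded by *Thra* and *Thrb*, and *Klf9* and *Hr* are textbook T3-induced genes, which encode a Krüppel-like transcription factor and a corepressor with a histone demethylase domain. The cerebellum is a classical target of the hormone, since lack of it in early postnatal life delays granule cell migration, Purkinje cell dendrite growth and myelination.

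The libraries held between 6399499 and 14733985 reads counted on genes, P7 replicate 2 being the shallowest. Values are given as normalized counts, that is reads divided by 1 size factor per library. Of the 7 genes, 6 passed the filter for testing, in which 3 or more libraries had to reach a normalized count of 10, and *Dio3* did not. Astrocyte markers were detected at every age (11 of 11 in the table), but their summed normalized count lay between 61665 and 78466 at P1, between 29678 and 54402 at P7, between 157145 and 193964 at P14, and between 362348 and 423817 at P28. Markers of other cells were present beside them. The sum of 8 oligodendrocyte markers lay between 1368 and 2428 at P1 and between 15583 and 23990 at P7. It reached 197126 to 285368 at P14, and was 86310.4 to 119027 at P28. The sum of 7 choroid plexus markers spread from 1349 to 110750 among the P14 libraries alone. The marker *Ttr* made up 796 and 107436 of these sums. In these bulk samples fewer cells of a type and less RNA per cell cannot be told apart.

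Between P1 and P28 the expression of 5 of the 6 tested genes rose (*Dio2*, *Slco1c1*, *Thrb*, *Klf9* and *Hr*) and none fell, and *Thra* did not pass the test (limma, adjusted p under 0.05). Over the same interval 34.6% of the 15464 genes tested passed, 14.6% upwards. Among the consecutive steps, most of these genes passed from P7 to P14, where *Dio2*, *Thrb*, *Klf9* and *Hr* rose, 4 of 6, against 20.9% of all tested genes in either direction and 10.8% upwards. From P1 to P7 only *Dio2* passed, upwards (background, that is the share of all tested genes, 7.70%, and 3.47% upwards), and from P14 to P28 only *Hr* passed, downwards (background 14.4%, and 8.76% downwards). At an unadjusted p under 0.05 with a log2 change over 0.75, 3 genes passed from P1 to P7 (background 14.2%). By the cruder measure of libraries that do not overlap, 4 genes stood apart between P1 and P7 (*Dio2*, *Slco1c1*, *Thra* and *Hr*, background 38.3%), 5 between P7 and P14 (all but *Slco1c1*, *Thra* being lower at P14, background 46.1%), 4 between P14 and P28 (*Dio2* higher and *Slco1c1*, *Klf9* and *Hr* lower, background 26.1%) and 5 between P1 and P28 (all but *Thra*, background 41.9%). A test across all 4 ages passed for the same 5 genes and not for *Thra* (adjusted p = 0.108), with a background of 43.8%.

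**Figure D1:**
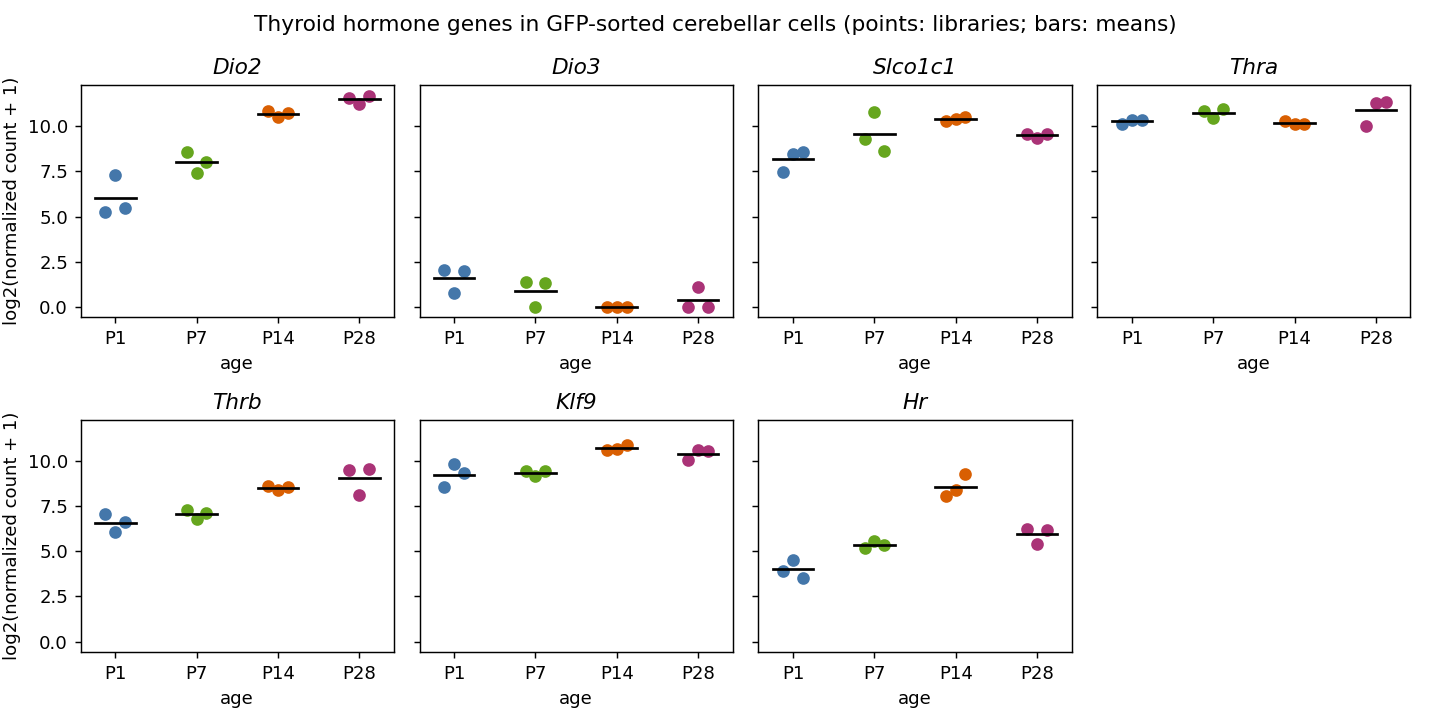
Expression of the 7 thyroid hormone genes in each library. The x axis gives the age and the y axis log2(normalized count + 1); points are libraries (3 per age) and bars their means. *Dio2* lies higher at each later age, *Hr* is highest at P14, and *Dio3* stays near 0.

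**Figure D2:**
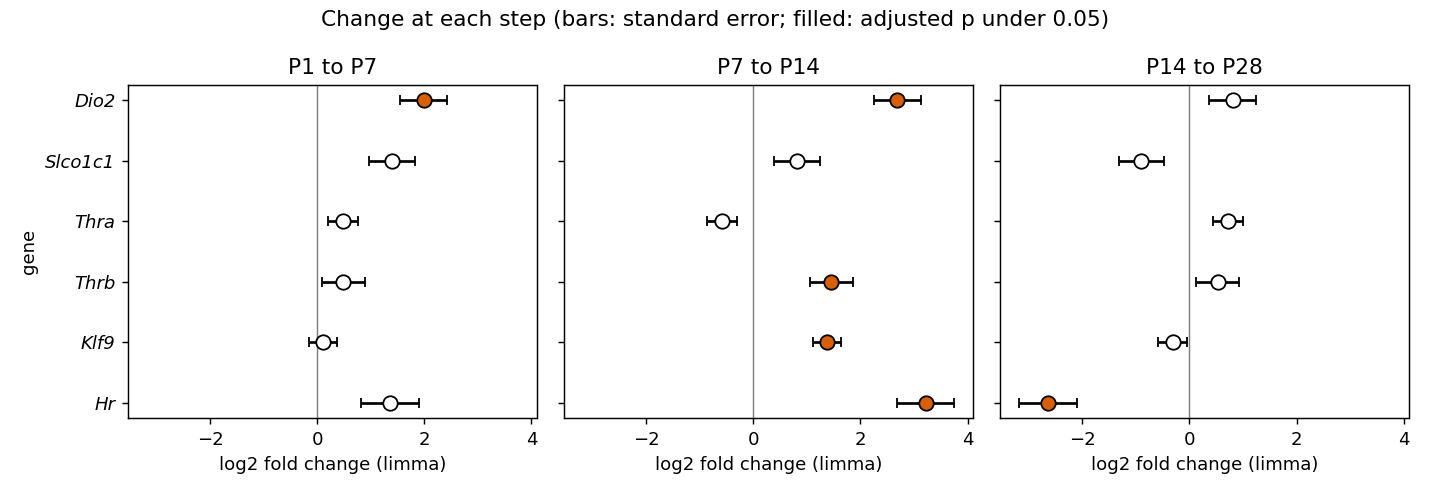
Change of the 6 tested genes at each consecutive step. The x axis gives the limma log2 fold change, bars are standard errors and filled points passed at an adjusted p under 0.05; 4 points are filled from P7 to P14, 1 from P1 to P7 and 1 from P14 to P28.

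*Dio2*, which encodes the activating deiodinase, showed the largest rise of the 6. Its normalized counts were 36.9, 159 and 43.9 at P1, 387, 169 and 257 at P7, 1843, 1447 and 1704 at P14, and 3019, 2433 and 3329 at P28. The libraries of successive ages did not overlap at any step, although the highest P1 library and the lowest P7 library were close. Means were 80.1 ± 68.7, 271 ± 109.7, 1665 ± 201 and 2927 ± 455 (SD, n = 3 each). The log2 fold change was 1.99 ± 0.44 (SE) from P1 to P7 (adjusted p = 0.0117) and 2.69 ± 0.44 from P7 to P14 (adjusted p = 5.42e-04), and over the whole interval from P1 to P28 it was 5.48 (adjusted p = 5.18e-07). From P14 to P28 the difference of 0.81 did not pass (adjusted p = 0.235), so P14 and P28 are neighbours in the order of levels that the test did not separate. This test shares its estimate of the spread over all ages, and the step did pass in an alternative fit that kept all libraries. The rise from P1 to P7 rested on few libraries: it did not pass without P1 replicate 1 (1.60, adjusted p = 0.0666), nor without P7 replicate 1 (1.69, adjusted p = 0.0608). The astrocyte marker sum was lower at P7 than at P1 and highest at P28, and *Aldh1l1* itself averaged 5008, 1470, 1879 and 2921 over the 4 ages in turn. The single markers moved unevenly over the first step, where 7 of 11 fell and 2 (*Gfap* and *S100b*, named after their values were seen) rose with *Dio2*. At that step 7.70% of all genes tested passed. From P7 to P14, 9 of the 11 rose and 0 fell, and from P14 to P28, 8 rose and 0 fell. Over these later steps 20.9% and 14.4% of all genes tested passed. The genes whose centred log2 values over the 12 libraries lay nearest to those of *Dio2* were *Sowaha*, *E030003E18Rik* and *Aldh1a1*, with root mean square differences of 0.44, 0.52 and 0.54 among 10212 candidates.

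*Dio2* lies on the minus strand at chr12:90724552-90738438 (GRCm38), and 100 bases of its exons overlap the antisense transcript *Gm26512*. Promoter windows, from 250 bases before to 50 bases after a RefSeq start site, were on hand for 5 of the 7 genes (6 windows, GRCm38.p6). They were searched on both strands for the receptor half-site AGGTCA, found in 16.3% of 32851 mouse windows, for its direct repeat with a 4-base spacer (DR4), which contains the half-site and occurs in 0.0152%, and for the Krüppel-like factor motif CACCC, found in 57.5%. None of the 6 windows held the direct repeat or more than 1 half-site. The windows of *Dio2* and *Thrb* are shown because the former is the promoter of the gene that rose most and the latter holds the only half-site among the 6. Capitals mark, in the *Dio2* window, TGACGTCA, the cAMP response element, 95 bases before the start, and the TATA motif TATAAA, 30 bases before it, and in the *Thrb* window the half-site 184 bases before the start. The cAMP response element and TATA motifs were added to the search after the sequence was seen and occur in 1.79% and 13.6% of all windows. The TATA motif was also found 31 bases before the start in the *Dio3* window and just after the start in that of *Slco1c1*. Another *Thrb* window, which is not shown, held it 167 bases before the start. CACCC was found in the windows of *Slco1c1*, *Dio3* and *Klf9*. The *Dio2* window lies outside the gene span given above, so its RefSeq start is not the 5′ end of that span. A match is a description of letters, not evidence of a bound site.
*Dio2* chr12:90738989-90739288, minus strand: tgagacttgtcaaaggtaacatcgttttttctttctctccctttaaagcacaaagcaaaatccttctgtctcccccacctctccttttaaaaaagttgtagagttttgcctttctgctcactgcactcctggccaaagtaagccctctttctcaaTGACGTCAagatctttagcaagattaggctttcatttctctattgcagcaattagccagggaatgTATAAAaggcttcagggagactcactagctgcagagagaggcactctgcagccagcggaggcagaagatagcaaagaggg
*Thrb* chr14:17660710-17661009, plus strand: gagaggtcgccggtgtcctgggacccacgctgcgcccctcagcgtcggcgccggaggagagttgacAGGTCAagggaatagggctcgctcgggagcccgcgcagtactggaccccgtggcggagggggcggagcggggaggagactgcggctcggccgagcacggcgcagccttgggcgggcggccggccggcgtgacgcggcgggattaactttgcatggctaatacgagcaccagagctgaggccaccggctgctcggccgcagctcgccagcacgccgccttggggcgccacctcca

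*Dio3*, which encodes the inactivating deiodinase (chr12:110279068-110281097, plus strand), was close to the limit of detection. Its 3 libraries of P1 held 10 reads in all, those of P7 held 4, those of P14 held 0 and those of P28 held 1. At P14 a count of 0 allows up to 3 reads per library, which corresponds to 3.17 to 3.26 normalized counts, so an expression up to that level is not excluded at P14. The normalized counts at P1, 3.08, 0.714 and 3.03, came from 1 to 5 reads per library, and no fold change was formed for *Dio3* or for its ratio to *Dio2*. In the same libraries *Dio2* had 341, 947, 4677 and 6591 reads. The neighbouring antisense transcript *Dio3os*, whose exons do not overlap those of *Dio3*, averaged 3.27, 0.436, 17.0 and 5.69 over the 4 ages in turn. Its libraries overlapped between ages that are neighbours in the order of levels. From P7 to P14 they did not overlap, and *Dio3os* rose (log2 fold change 3.66, limma adjusted p = 0.0264). This rests on few reads, at most 1 per library at P7 and 10 to 26 at P14.

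*Slco1c1*, the T4 carrier gene (chr6:141524368-141570177, plus strand), was lowest at P1 and highest at P14. Normalized counts were 176, 357 and 385 at P1, 634, 1781 and 396 at P7, 1252, 1364 and 1432 at P14, and 772, 643 and 756 at P28. The P7 libraries spread over a wider range than those of any other age, and P7 replicate 2 exceeded every P14 library. From P1 to P28 the gene rose by 1.31 ± 0.42 (log2, adjusted p = 0.0271), and from P1 to P14 by 2.21 (adjusted p = 0.00187, background 20.4%). No consecutive step passed: the log2 differences were 1.40 (adjusted p = 0.0608), 0.82 (adjusted p = 0.207) and -0.90 (adjusted p = 0.170). The fall from P14 to P28, where the libraries did not overlap, did pass when limma was fitted to only the ages compared (adjusted p = 0.0320). Without P7 replicate 2 the step from P7 to P14 became 1.43 (adjusted p = 0.00912) and that from P1 to P7 0.79 (adjusted p = 0.258). The rise from P1 to P28 did not pass without P1 replicate 1 (0.96, adjusted p = 0.130), P28 replicate 1 (1.27, adjusted p = 0.0602) or P28 replicate 3 (1.28, adjusted p = 0.0545), nor with scaling by library totals (0.88, adjusted p = 0.117).

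Endothelial cells of brain vessels also carry *Slco1c1*, and the sum of their markers was high in the same libraries. The summed normalized count of 11 endothelial and pericyte markers (all 11 in the table, none at 0 in all libraries of an age) was 1837, 5601 and 2036 at P1, 3848, 12856 and 2954 at P7, 7712, 8090 and 8168 at P14, and 4128, 4764 and 5788 at P28. P7 replicate 2, the library with the highest *Slco1c1*, had the highest sum, and its astrocyte sum (29678) was the lowest of all 12 libraries. *Flt1*, an endothelial receptor for vascular growth factor, stood at 379, 1492 and 241 in the P7 libraries. Few of the 11 passed on their own: 1 rose from P1 to P7, 1 rose from P7 to P14 and 3 fell from P14 to P28, against 7.70%, 20.9% and 14.4% of all genes tested. Some went another way than *Slco1c1*, since the mean of *Pdgfrb*, the most abundant of the 11 over all libraries, was 896 at P1 and 636 at P7, and that of *Flt1* was 1056 at P14 and 1300 at P28, neither difference passing the test. P1 replicate 2 departed from this, with a marker sum above those of P7 replicates 1 and 3 and a *Slco1c1* count of 357. The part of these cells in the *Slco1c1* values was not tested. The genes nearest to *Slco1c1* over the 12 libraries were *Tfrc*, which encodes the transferrin receptor, *Slc16a4* and *Igfbp7*, with root mean square differences of 0.29, 0.32 and 0.40.

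**Figure D3:**
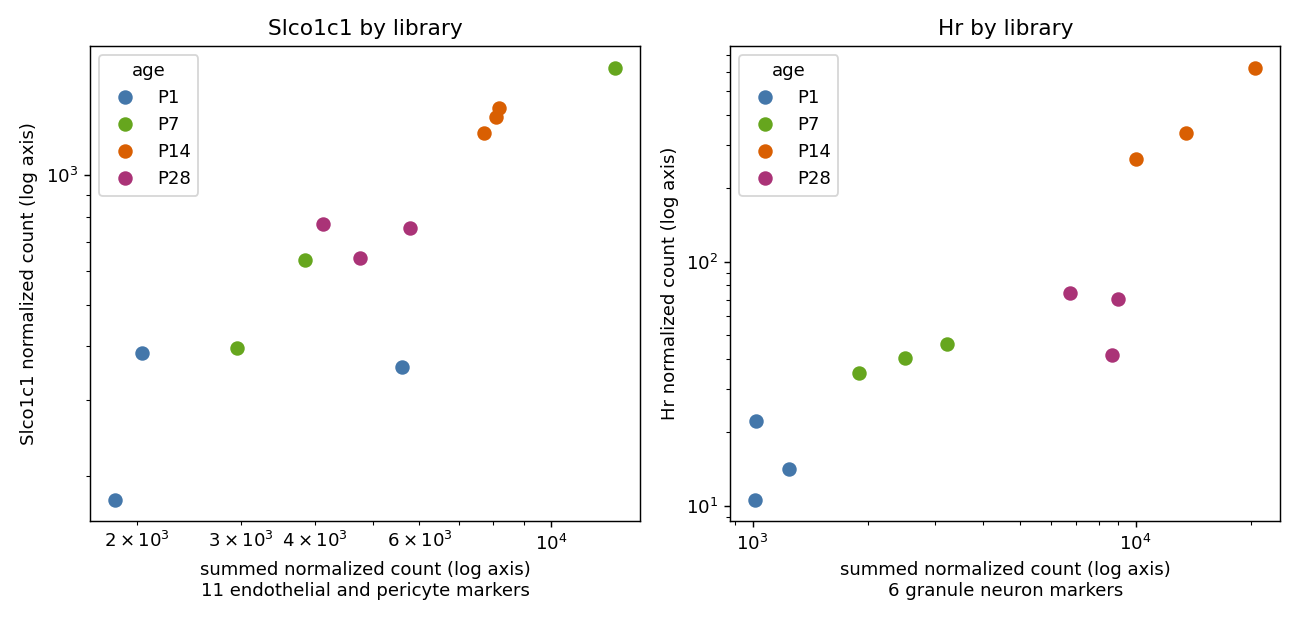
*Slco1c1* against the sum of 11 endothelial and pericyte markers (left) and *Hr* against the sum of 6 granule neuron markers (right), in normalized counts on log axes, 1 point per library coloured by age. The P7 library with 1781 *Slco1c1* counts has the highest endothelial sum (12856), and the 3 P14 libraries have the highest *Hr* counts and the highest granule neuron sums.

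Of 9 other thyroid hormone carriers, 8 were tested. From P1 to P28, 3 of these rose and 1 fell, against 34.6% of all genes tested, with a median log2 fold change of 0.85 against -0.24 over all genes tested. *Slco1a4*, an organic anion transporter, rose from P1 to P7 (log2 fold change 2.66, adjusted p = 0.00547) and from P7 to P14 (2.54, adjusted p = 0.00291), from a mean of 39.3 at P1 to 1437 at P14, the ages at which the endothelial sum was also lowest and highest on the median. *Slco4a1*, of the same family, rose from P7 to P14 (3.26, adjusted p = 3.40e-04), from 67.0 to 642. *Slc16a10*, an aromatic amino acid and thyroid hormone transporter, fell from P14 to P28 (-3.06, adjusted p = 0.0265), from 46.3 to 4.46. Its P28 libraries held 5, 4 and 1 reads, near the detection limit, so the size of this fall is uncertain.

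Among genes of hormone binding and deiodinase synthesis or turnover, 8 were tested, and 1 rose and 3 fell from P1 to P28, against 34.6% of all genes tested (median -0.80 against -0.24). *Crym*, which encodes a cytosolic T3-binding protein, fell from P1 to P7 (-3.89, adjusted p = 0.0217), from 162 to 10.3. *Ttr*, the plasma and cerebrospinal fluid T4-binding protein, rose at that step (7.65, adjusted p = 0.00289), from 399 to 77688. *Ttr* is also one of 7 choroid plexus markers, whose sum was 1176 to 2666 in the P1 libraries and 48776 to 129129 in those of P7. *Ttr* itself made up most of the sum at P7, 60055 of 61841 in replicate 1. The sum is therefore no separate measure beside *Ttr*. Of these 7, 4 rose at this step, *Ttr* among them, and 0 fell, against 7.70% of all genes tested. *Otx2* had means of 1239.8 and 796, and the part of choroid plexus cells in the *Ttr* value was not tested. *Wsb1*, which encodes a ubiquitin ligase adaptor that marks the DIO2 protein for degradation, fell from P7 to P14 (-0.77, adjusted p = 0.0111), the step with the larger rise of *Dio2*.

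Both receptor genes were expressed, and only *Thrb* rose. *Thrb* (chr14:17660261-18038090, plus strand) had normalized counts of 135, 65.7 and 96.9 at P1, 154, 111 and 140 at P7, 388, 339 and 382 at P14, and 722, 275 and 764 at P28. P1 and P7 overlapped, P14 lay above both, and P28 spread on either side of P14. It rose from P7 to P14 by 1.46 ± 0.40 (log2, adjusted p = 0.0184) and from P1 to P28 by 2.47 (adjusted p = 3.08e-04), and the steps from P1 to P7 (0.49, adjusted p = 0.617) and from P14 to P28 (0.53, adjusted p = 0.404) did not pass. The P7 to P14 step was near the threshold and did not pass without P7 replicate 2 (1.32, adjusted p = 0.0717), P7 replicate 3 (1.49, adjusted p = 0.0511), P14 replicate 1 (1.42, adjusted p = 0.0575) or P14 replicate 3 (1.43, adjusted p = 0.0537).

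*Thra* (chr11:98740638-98769006, plus strand) passed at no step. Its normalized counts were 1124, 1320.3 and 1299 at P1, 1844, 1399 and 1998 at P7, 1256, 1111 and 1109 at P14, and 1049, 2541 and 2590 at P28. The P7 libraries lay above those of P1 and P14 without overlap, while P28 replicate 1 lay below and the other two P28 libraries above every earlier library. The log2 differences were 0.47 (adjusted p = 0.419), -0.58 (adjusted p = 0.173), 0.72 (adjusted p = 0.101) and, from P1 to P28, 0.61 (adjusted p = 0.105), each ± 0.28 (SE). P28 replicate 1 decided this outcome: without it *Thra* rose from P14 to P28 (1.15, adjusted p = 0.00180) and from P1 to P28 (1.04, adjusted p = 8.61e-04) and fell from P7 to P14 (-0.58, adjusted p = 0.0213). Counts per gene do not separate the hormone-binding and non-binding isoforms of *Thra*.

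The 3′ end of *Thra* shares 263 exonic bases, 5.70% of its exon union, with the clock repressor gene *Nr1d1* on the opposite strand, and the strand setting of the counting is not given in the sources used here. *Nr1d1* had normalized counts of 375, 440.1 and 507 at P1, 661, 379.5 and 454 at P7, 2679, 2155 and 2544 at P14, and 3364, 5151 and 5321 at P28. It rose from P7 to P14 by 2.33 (adjusted p = 8.80e-06), where *Thra* did not rise, and from P14 to P28 by 0.88 (adjusted p = 0.0222), with P28 replicate 1 the lowest of its age for both genes. The part of shared reads in the *Thra* values was not tested.

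Per length, *Thra* stood above *Thrb* in every library. The ratio of reads per kilobase of exon was 13.3, 32.2 and 21.5 at P1, 19.3, 20.2 and 22.9 at P7, 5.20, 5.26 and 4.65 at P14, and 2.33, 14.8 and 5.44 at P28. All 3 ratios at P14 lay below all 6 at P1 and P7, while P28 spanned from below the lowest P14 ratio to above the lowest P1 ratio. A ratio within a library does not depend on the scaling. The genes nearest to *Thra* were *Serp1*, *B630005N14Rik* and *Pogz* (root mean square differences of 0.19, 0.22 and 0.22), and those nearest to *Thrb* were *Ptpn3*, *Dbndd2* and *Myh6* (0.32, 0.34 and 0.36).

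Of 14 receptor partners and coregulators, all tested, 1 rose and 3 fell from P1 to P28, against 34.6% of all genes tested, with a median of -0.13 against -0.24. *Rxra*, a retinoid X receptor that pairs with the thyroid hormone receptors, fell from P1 to P7 (-1.22, adjusted p = 0.0402), from 900.0 to 382. From P7 to P14 the corepressor gene *Ncor1* fell by 0.56 on the log2 scale (adjusted p = 0.0184) and the mediator subunit gene *Med1* fell by 0.69 (adjusted p = 0.0144). The coactivator gene *Ncoa1* rose from P14 to P28 by 0.75 (adjusted p = 0.00428), from 2661 to 4474.

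*Klf9* (chr19:23141226-23168134, plus strand) rose in a single step. Its normalized counts were 383, 906 and 636 at P1, 705, 571 and 684 at P7, 1580.1, 1648 and 1858 at P14, and 1080.0, 1559 and 1494 at P28. P1 and P7 overlapped, every P14 library exceeded every earlier one, and the P28 libraries lay below those of P14 and above those of P1 and P7. The rise from P7 to P14 was 1.38 ± 0.26 (log2, adjusted p = 0.00184) and that from P1 to P28 was 1.17 (adjusted p = 0.00357). The differences from P1 to P7 (0.11, adjusted p = 0.912) and from P14 to P28 (-0.31, adjusted p = 0.458) did not pass. The genes nearest to *Klf9* were *Vamp2*, a synaptic vesicle protein gene, and the respiratory chain genes *Cox6a1* and *Ndufc2*, with root mean square differences of 0.21, 0.23 and 0.25.

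In the Krüppel-like factor family, 13 other genes were tested. From P7 to P14, 2 rose and 2 fell (20.9% of all genes tested passed), and from P1 to P28, 1 rose and 7 fell (34.6%), with a median of -1.16 against -0.24 over all genes, while *Klf9* rose. From P7 to P14 *Klf13* rose (1.30, adjusted p = 0.00716) and then fell from P14 to P28 (-0.98, adjusted p = 0.0452), and *Klf15* rose (1.58, adjusted p = 0.0445) after a fall from P1 to P7 (-1.90, adjusted p = 0.0388). *Klf12* fell from P7 to P14 (-1.50, adjusted p = 0.00371). From P14 to P28 *Klf4* fell (-1.54, adjusted p = 0.00177) and *Klf3* rose (1.30, adjusted p = 0.00362).

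*Hr* (chr14:70552212-70573548, plus strand) rose and fell again, and it was the only one of the 6 genes to pass in opposite directions. Its normalized counts were 14.2, 22.1 and 10.6 at P1, 35.0, 45.8 and 40.3 at P7, 264, 336 and 624 at P14, and 74.5, 41.3 and 70.3 at P28. Every P14 library stood above every other library, and the P7 and P28 libraries overlapped. It rose from P7 to P14 by 3.22 ± 0.54 (log2, adjusted p = 6.75e-04), fell by 2.65 at the next step (adjusted p = 0.00632), and was still higher at P28 than at P1 (1.94, adjusted p = 0.0129). P14 replicate 3 was the highest library, and without it both steps still passed, with values of 2.86 (adjusted p = 0.00560) and -2.29 (adjusted p = 0.0362). The net rise from P1 to P28 did not pass without P1 replicate 3 (1.71, adjusted p = 0.0520).

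Markers of cerebellar granule neurons were also highest in sum at P14. The summed normalized count of 6 such markers was 1246, 1020 and 1018 at P1, 1901, 3213 and 2494 at P7, 10008, 13510 and 20554 at P14, and 6734, 8699 and 9010.5 at P28. The order of the 3 P14 libraries was the same for *Hr* and for this sum. *Gabra6*, a GABA receptor subunit gene that defines mature granule neurons, was at 0 in all P1 libraries, and *Cbln3*, the most abundant of the 6 at P14 and P28 but not before, stood at 2622, 3641 and 6357 in the P14 libraries and at no more than 49.4 at P7. Of the 6, 4 rose and 1 (*Etv1*) fell from P1 to P7, 5 rose from P7 to P14 and 1 fell from P14 to P28. At these steps 7.70%, 20.9% and 14.4% of all genes tested passed. A sum of 5 general neuron markers ran from 21536 to 39245 at P14 and from 12901 to 17520 at P28, and the oligodendrocyte sum given above was also highest at P14. The general neuron sum put the 3 P14 libraries in the same order as *Hr*, so that order is not particular to granule neuron markers. The oligodendrocyte sum did so too, but through *Mbp* (100186, 125612 and 212767 in the P14 libraries). Every other marker of that sum was lowest in P14 replicate 3, *Mobp* among them (30331, 29881 and 20515). The part of granule neurons, other neurons and oligodendrocytes in the *Hr* values was not tested. At P28 every granule neuron sum lay above those of P7, while the *Hr* counts of these ages overlapped. The genes nearest to *Hr* were *Gpr62*, *Grb14* and *Gsn*, with root mean square differences of 0.45, 0.54 and 0.57.

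Levels can be compared between genes only per length, and for this the recovered reads were expressed as RPKM, that is per kilobase of exon union and divided by the reads counted on genes. At P1 *Thra* stood highest (30.2 ± 2.93, SD, n = 3), followed by *Klf9* (14.9 ± 5.93) and *Slco1c1* (6.61 ± 2.54), while *Dio2* (1.52 ± 1.28) and *Thrb* (1.499 ± 0.522) were alike within their spread and *Hr* (0.251) and *Dio3* (0.126) were lowest. At P14 *Klf9* (34.2 ± 2.85), *Dio2* (27.9 ± 3.73), *Slco1c1* (25.3 ± 1.53) and *Thra* (24.4 ± 2.10) lay close together, above *Hr* (5.73 ± 2.67) and *Thrb* (4.86 ± 0.414). With the longest transcript of each gene in place of the exon union they lay further apart, with *Thra* at 46.0, *Slco1c1* at 41.3, *Klf9* at 36.7 and *Dio2* at 27.9. At P28 *Dio2* led (41.5 ± 6.03), with *Thra* within its spread (36.5 ± 14.7), followed by *Klf9* (23.5 ± 3.84), *Slco1c1* (11.5 ± 1.27), *Thrb* (6.54 ± 3.01) and *Hr* (0.741 ± 0.223). The lead of *Dio2* depended on the length used, since with the longest transcript *Thra* reached 68.6 at P28.

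Other genes known to respond to thyroid hormone in brain or liver gave 17 tested members. From P1 to P7, 7 rose and 2 fell, where 7.70% of all genes tested passed (median 0.78 against 0.04 over all genes). From P7 to P14, 6 rose and 0 fell, where 20.9% passed (median 0.70 against -0.09), and from P14 to P28, 2 rose and 3 fell, where 14.4% passed (median -0.76 against -0.12). *Shh* and *Ntf3* were at 0 in every library of some ages, and with such values set to the detection limit, or left out where both ages lay under it, the 3 medians were 0.78, 0.67 and -0.80. *Thrsp*, a lipogenic gene induced by T3 in liver, rose from P1 to P7 (1.94, adjusted p = 3.64e-04) and from P7 to P14 (2.62, adjusted p = 7.29e-06), with means of 58.3, 228, 1380 and 1147 over the 4 ages. *Me1*, the T3-responsive malic enzyme gene, fell from P1 to P7 (-0.73, adjusted p = 0.0399) and then rose at both later steps (0.77, adjusted p = 0.0138, and 0.78, adjusted p = 0.0209). *Dbp*, a clock output gene, rose from P7 to P14 (1.73, adjusted p = 0.0371). *Rora*, an orphan nuclear receptor gene, rose from P1 to P7 (0.78, adjusted p = 0.0298) and from P14 to P28 (0.86, adjusted p = 0.0131).

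Several of the 17 are genes of other cells, and 2 of them (*Mbp* and *Pcp2*) are also in the marker lists. *Mbp*, which encodes a myelin protein, rose at both early steps, with log2 fold changes of 4.21 (adjusted p = 1.36e-05) and 3.64 (adjusted p = 3.99e-06), and over both of them the oligodendrocyte sum given above was also higher at the later age. *Mbp* is part of that sum and made up 9820 of 15583 in P7 replicate 1. All 8 markers of the sum rose at each of these steps, where 7.70% and 20.9% of all genes tested passed. *Pcp2*, a Purkinje cell gene, rose from P7 to P14 (3.66, adjusted p = 0.00127). *Camk4*, a calcium-dependent kinase gene strongly expressed in granule neurons, rose from P1 to P7 (2.09, adjusted p = 9.74e-04) and from P7 to P14 (3.02, adjusted p = 1.17e-05). *Cntn2*, an axonal adhesion gene of migrating granule neurons, rose from P1 to P7 (3.76, adjusted p = 1.29e-04). *Reln* and *Nrep* fell from P14 to P28 by 1.21 (adjusted p = 0.0150) and 1.51 (adjusted p = 0.00199), after a rise of *Nrep* from P1 to P7 (1.45, adjusted p = 0.00257). The part of oligodendrocytes and neurons in these values was not tested.

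**Figure D4:**
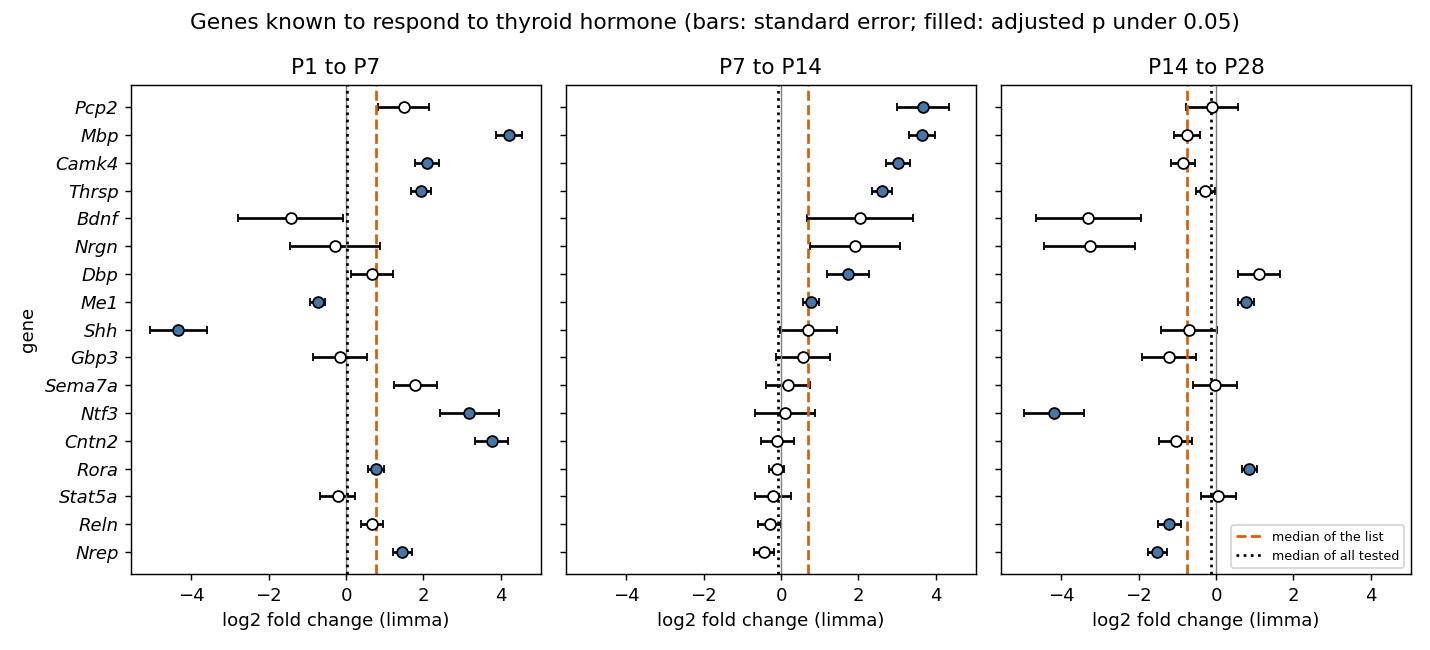
Change of 17 genes known to respond to thyroid hormone, at each consecutive step. The x axis gives the limma log2 fold change, bars are standard errors, filled points passed at an adjusted p under 0.05, and the dashed and dotted lines are the medians of the 17 and of all genes tested; *Shh* and *Ntf3* have ages at which every library is at 0, so their plotted values are no measure of fold. From P7 to P14 6 points are filled, all to the right of 0.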

How the data were processed

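RNA was sequenced from 12 libraries, 3 at each of 4 ages. Per the submitters' processing notes and the methods, the authors checked reads with FastQC 0.11.7 and MultiQC 1.11, aligned them with STAR 2.5.0a to mm10, counted reads over UCSC transcripts, and used DESeq2 1.30.1 for normalization. The versions are those of the processing notes, and the methods name other versions of FastQC, MultiQC and DESeq2. The deposited signal values are therefore reads divided by 1 size factor per library. Whole reads were recovered from the steps between low values for 100% of values, within 0.01. How reads shared by overlapping genes were assigned is not given in the sources used here.

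Groups follow the age in the labels. The main test was limma 3.58.1 (R 4.3.3) with a mean-variance trend on log2(value + 1), fitted over all 12 libraries and the 15464 genes that reached a value of 10 in 3 or more of them. Contrasts were adjusted by Benjamini-Hochberg over all genes tested and called under 0.05. On this scale the fold changes of low genes come out too small. Alternatives used recovered reads with edgeR 4.0.16 and DESeq2 1.42.0, other scalings, pseudocounts and filters, and left out each library in turn. The fits were tested on simulated data. No 2 libraries of an age agreed within sampling noise. Depth of 6399499 to 14733985 reads limits *Dio3* and *Hr*, and detection limits (3 reads) cover counting error only.

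The 7 genes and all lists were chosen with earlier results of these data known, and 2 list genes are not reported here. All 7 were described in full. Other list genes were named if called at a consecutive step, the largest changes first, with *Nr1d1*, *Dio3os* and the 2 most abundant markers of a list. The 3 genes nearest to each of the 6 had a mean of at least 100 and the smallest root mean square difference of centred log2 values. Coordinates and lengths came from GENCODE M21 (GRCm38), and promoter windows from RefSeq (GRCm38.p6).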

Additional observations from a re-analysis of the deposited data

How the results depend on the processing

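Of 552 recomputed differences of single genes under the alternatives, 522 kept their direction and their side of the threshold, 12 no longer passed, 17 newly passed and 1 reversed. The reversal was *Klf9* from P1 to P7 without P1 replicate 1 (-0.22; 0.40 without P1 replicate 2), which passed in neither fit. With all libraries kept, 2 of 264 no longer passed, namely *Slco1c1* from P1 to P28 with library totals, and *Hr* from P1 to P28 with only the ages compared (adjusted p = 0.0959). The number of genes higher from P1 to P7, 1 in the report, was 2 when every library had to hold 10 reads, 2 with edgeR (both scalings), 3 with DESeq2 and 3 at an unadjusted p under 0.05 with a log2 change over 0.75. The number lower from P7 to P14, 0 in the report, was 1 with library totals and 1 with only the ages compared. From P14 to P28, 1 gene was higher with DESeq2 and 1 with only the ages compared, against 0, and 2 were lower with only the ages compared, against 1. The cause of these shifts was not tested. Leaving out each library gave 0 to 2 higher from P1 to P7, 3 to 4 higher and 0 to 1 lower from P7 to P14, 0 to 1 higher and 1 to 1 lower from P14 to P28, and 4 to 5 higher from P1 to P28. Scaling by library totals moved the median log2 change of all genes from -0.09 to -0.34 (P7 to P14), from -0.12 to -0.35 (P14 to P28) and from -0.24 to -0.66 (P1 to P28). A fit with the replicate number as a block gave the same counts, 1, 4, 0 and 5 higher and 0, 0, 1 and 0 lower. The numbers were not taken to pair the libraries, since 1 of 18 same-numbered pairs correlated over 0.1 in their deviations (range -0.029 to 0.139, other pairs -0.105 to 0.0536). A library did correlate best with its own number in 25 of 36 comparisons with another age. That is more often than an even spread over the 3 libraries of an age would give. Depth limited *Dio3*, for which no test was made.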

Other observations

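The organic anion transporter genes outside the carrier list changed in both directions. *Slco3a1* rose from P1 to P7 (log2 fold change 1.58, limma adjusted p = 0.00859) and from P7 to P14 (1.33, adjusted p = 0.0101), with means of 110.0, 317, 815 and 458 normalized counts over the 4 ages. *Slco5a1* fell by 5.62 from P7 to P14 (adjusted p = 0.00163), from 503 to 16.6. Of the 7 family members tested besides *Slco1c1*, 3 rose and 1 fell from P1 to P28, against 34.6% of all genes tested. Of the 3 that rose, 2 (*Slco1a4* and *Slco4a1*) are in the carrier list.

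The histone demethylase genes *Kdm3a*, *Kdm3b* and *Jmjd1c*, the nearest relatives of *Hr*, did not share its peak. *Jmjd1c* rose from P1 to P7 by 0.46 (adjusted p = 0.0422), none of the 3 passed from P7 to P14 or from P14 to P28, and 2 of the 3 fell from P1 to P28. Over the last 3 of these intervals 20.9%, 14.4% and 34.6% of all genes tested passed. *Klf7*, of the *Klf9* family, rose from P1 to P7 (0.78, adjusted p = 0.0416) and fell from P7 to P14 (-0.73, adjusted p = 0.0269).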
